A study of Mus musculus with 12 samples.

Results

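H3K36ac peaks at olfactory receptor genes were taken from the peak lists of 6 mouse liver tumour immunoprecipitates, by position alone. A peak was a member when it lay on chromosomes 1 to 19 and overlapped, by at least 1 bp, a protein-coding RefSeq gene with a symbol starting with Olfr, extended by 5 kb on each side. There were 670 such peaks among 109597 in all, 403 in the LysM-Cre lists and 267 in the Trem2-MKO lists. They made up 0.615% of the 108914 peaks on chromosomes 1 to 19. The genes numbered 1104, and 1 of them, Olfr100, was listed before the first peak of its chromosome and had no window. The windows of the others merged into 910 stretches totalling 12.5 Mb on 16 chromosomes. These made up 0.613% of the part of those chromosomes that the lists span. The label of a gene family silent in liver could not be checked, because no RNA was measured in these samples.

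The study set LysM-Cre mice, which carry the Cre driver alone, beside Trem2-MKO mice, in which Trem2 is deleted in myeloid cells. All mice bore liver tumours and received anti-PD-1 treatment, so no untreated tumour and no normal liver is among the groups. The LysM promoter drives Cre in myeloid cells, whereas chromatin came from whole tumour, and the labels give neither the strain and age of the mice nor how the tumours arose. Each genotype had 3 H3K36ac libraries and 3 inputs of 12 samples in all. The labels call the 3 libraries replicates and the design text counts 3 mice per genotype. The inputs were not analysed here on their own, and peak lists do not check the deletion of Trem2.

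Olfactory receptors are the odorant-binding G protein-coupled receptors of the nose. Each olfactory sensory neuron expresses a single allele of a single receptor gene, and the rest of the family stays silent there in compacted heterochromatin. The genes stand in dense clusters, have a coding sequence that usually lies in a single exon, and fall into class I, which forms a cluster on chromosome 7, and class II, which makes up the other clusters. H3K36ac is an acetylation of histone H3 known mostly from the starts of active genes, and liver has no known need for most of these receptors, which makes the family a natural negative class for such a mark.

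The sequence in front of these genes differs from that of most genes, and 4 promoters with a peak on them are printed to show it. RefSeq promoters on GRCm38.p6, the assembly behind mm10, came as 942 entries for 938 of the Olfr genes, each with 250 bases before and 50 after the annotated start. The Olfr1461 and Olfr678 windows lay wholly inside a peak, Olfr1297 carried a peak of high fold over 249 of its bases, and Olfr1152 was the receptor gene with a peak in the most libraries. Capitals mark TAATTA or TAATTG, the core letters bound by homeodomain proteins such as Lhx2, searched on both strands.
Olfr1461: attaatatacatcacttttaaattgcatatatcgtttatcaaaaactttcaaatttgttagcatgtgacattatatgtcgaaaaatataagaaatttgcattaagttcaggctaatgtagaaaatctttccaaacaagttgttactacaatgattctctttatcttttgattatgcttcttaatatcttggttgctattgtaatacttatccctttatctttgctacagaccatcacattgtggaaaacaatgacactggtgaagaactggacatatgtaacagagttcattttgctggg
Olfr678: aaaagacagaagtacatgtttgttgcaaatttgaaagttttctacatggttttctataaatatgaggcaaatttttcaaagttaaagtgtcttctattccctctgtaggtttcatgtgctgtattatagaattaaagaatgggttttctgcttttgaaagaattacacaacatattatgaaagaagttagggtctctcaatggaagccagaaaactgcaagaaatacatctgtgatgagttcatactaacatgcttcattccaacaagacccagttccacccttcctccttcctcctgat
Olfr1297: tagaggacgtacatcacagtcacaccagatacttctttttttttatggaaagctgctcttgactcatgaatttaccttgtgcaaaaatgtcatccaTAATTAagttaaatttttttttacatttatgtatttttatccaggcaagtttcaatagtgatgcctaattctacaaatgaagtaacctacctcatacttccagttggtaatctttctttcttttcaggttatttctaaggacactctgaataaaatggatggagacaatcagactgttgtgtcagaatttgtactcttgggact
Olfr1152: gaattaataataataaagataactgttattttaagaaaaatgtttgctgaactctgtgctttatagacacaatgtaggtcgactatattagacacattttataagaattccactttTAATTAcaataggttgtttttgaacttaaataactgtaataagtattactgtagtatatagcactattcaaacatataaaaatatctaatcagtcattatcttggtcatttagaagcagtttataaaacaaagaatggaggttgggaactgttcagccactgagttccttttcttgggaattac

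The Olfr1461 window is chr19:13164766-13165065 on the plus strand, and its peak in LysM-Cre replicate 3 had a fold of 4.43 over the local background, from 14 fragments at the summit. The Olfr678 window, from the class I cluster, is chr7:105069219-105069518 on the plus strand, and its peak in Trem2-MKO replicate 3 had a fold of 2.60 from 22 fragments. The Olfr1297 window is chr2:111622023-111622322 on the minus strand, under a peak of LysM-Cre replicate 2 with a fold of 4.05. The Olfr1152 window is chr2:87867743-87868042 on the plus strand, where a peak of LysM-Cre replicate 2 with a fold of 3.26 covered 253 bases. Each of the 4 windows had a peak in 1 library and none in the other 5.

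Olfactory receptor promoters were rich in A and T, and few carried a peak. Their median GC content was 35%, against 57.7% for 19142 entries of other protein-coding genes, and 75.8% of them lay under 40% GC, against 5.42%. TAATTA or TAATTG stood in 37.5% of the Olfr windows and in 9.33% of the others. The letters CCCNNGGG, the core of the Ebf site, stood in 3.08% and 16.6%. Shares expected from base composition alone were not computed for any of these letters. A peak overlapped 24 Olfr windows (2.55%), 0 of them in 2 or more libraries. Among the other genes 945 windows (4.94%) had a peak, 95 of them in 2 or more libraries. By library, the Olfr windows with a peak numbered 4, 9 and 4 in LysM-Cre replicates 1 to 3 and 4, 1 and 2 in Trem2-MKO. Of the 24 windows with a peak 7 (29.2%) held the homeodomain letters, against 37.7% of the windows without one. For 72.2% of the Olfr entries the base at the annotated start began an ATG, so the table's start is mostly the start of the coding sequence, and the true first exon may lie farther out.

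Peaks were not scarcer at olfactory receptor genes than elsewhere on the same chromosomes. The windows held 8.29, 16.0 and 7.81 peaks per Mb in LysM-Cre replicates 1, 2 and 3, where the rest of the chromosomes held 7.48, 12.2 and 8.08. In Trem2-MKO replicates 1, 2 and 3 they held 14.3, 3.19 and 3.75 peaks per Mb, against 12.3, 2.81 and 1.92. Only LysM-Cre replicate 3 had fewer peaks per Mb in the windows than outside them, and its observed count of 98 was still just above the 96.7 expected when each chromosome's own density was used. The differences between libraries, from 3.19 to 16.0 peaks per Mb, were far wider than those between windows and rest. The lists themselves ran from 4638 to 29970 peaks.

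**Figure D1:**
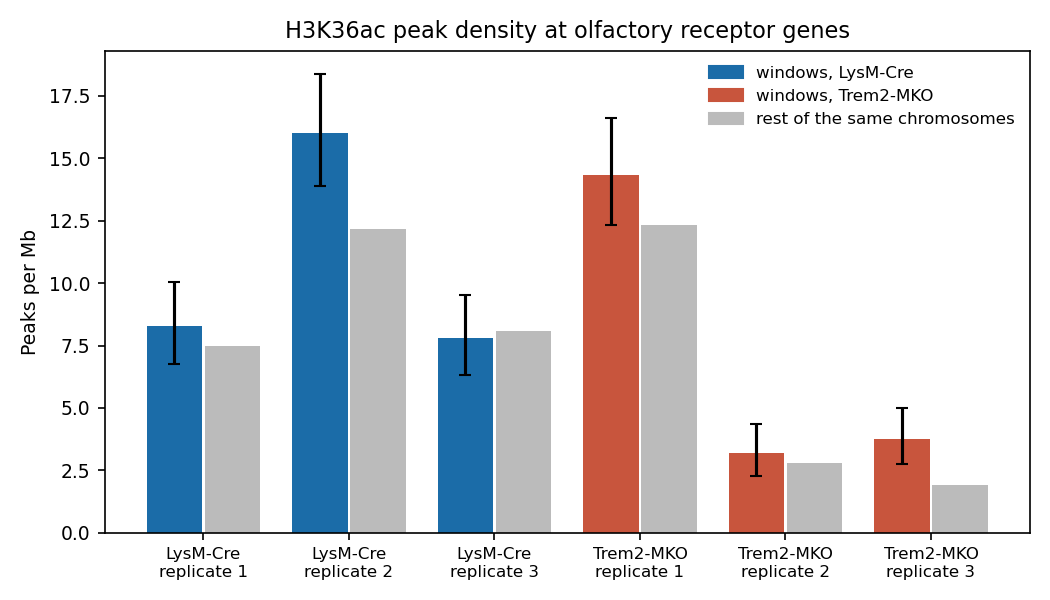
Peaks per Mb (vertical axis) in the windows around olfactory receptor genes (coloured bars) and in the rest of the same 16 chromosomes (grey bars) for each of the 6 libraries. Black lines are exact 95% Poisson intervals of the window counts, which cover counting error only; the coloured bar is the higher of the pair in 5 of the 6 libraries.

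Weighed by chromosome, and with peaks counted by overlap, the ratio of observed to expected peaks was above 1 in 6 of 6 libraries. A peak reaching into a window from outside was counted, while the expectation used the window length alone, which raises the ratio. By summit, LysM-Cre replicate 3 stood at 0.961 and the other libraries stayed above 1. By overlap the ratio was 1.13, 1.35 and 1.01 in the LysM-Cre libraries and 1.17, 1.19 and 2.13 in the Trem2-MKO libraries, with a geometric mean of 1.29. The exact 95% Poisson interval of the overlap count kept 3 of them above 1. These were LysM-Cre replicate 2 (1.17 to 1.55), Trem2-MKO replicate 3 (1.56 to 2.83) and, only just, Trem2-MKO replicate 1 (1.003 to 1.35). Intervals were not computed for counts by summit. The mean log2 ratio was 0.37 ± 0.38 (SD, n = 6; exact two-sided sign-flip permutation test, p = 0.03125, the smallest that 6 libraries can give). Libraries of a genotype share a pooled control, so the 6 are not fully independent, here and in the later tests over 6 libraries. All share the same windows, so these tests weigh agreement between libraries, not whether the windows are unusual in the genome. Trem2-MKO replicate 3, the shortest list, stood apart. The base level of local background behind its peaks was 5.92, as in Trem2-MKO replicate 2, against 2.39 to 2.70 in the other libraries. The part of this in the ratios was not tested. Without Trem2-MKO replicate 3 the mean log2 ratio was 0.22, where the exact test over 5 libraries cannot go below p = 0.0625. The excess did not pass the test when peaks were counted by their summit (0.30, p = 0.0625 in the same exact test), with peaks of −log10 p 5 or more (0.29, p = 0.1875) or with flanks of 0, 1 or 25 kb (0.27, 0.33 and 0.19).

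The genotypes differed by less than the Trem2-MKO libraries did among themselves. The mean log2 ratio was 0.21 ± 0.21 (SD, n = 3) in LysM-Cre and 0.52 ± 0.49 (SD, n = 3) in Trem2-MKO, and the ranges overlapped. The LysM-Cre mean was lower by 0.31 (exact two-sided permutation test, p = 0.4; 3 libraries against 3 cannot go below 0.1). Without Trem2-MKO replicate 3 the difference was -0.03. It changed sign, to 0.064, 0.32 and 0.054, with peaks of −log10 p 5 or more, of −log10 q 2 or more, and with lists of equal length. The 3 libraries of a genotype were called against a control pooled over its inputs, so genotype and control cannot be told apart.

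The family was also set beside other classes, each against the rest of its own chromosomes. Vomeronasal receptors, the pheromone receptors of the accessory olfactory organ, are likewise a clustered family, and their silence in these tumours was not checked either. They held fewer peaks than the rest in 6 of 6 libraries, with a geometric mean ratio of 0.541 over 354 genes. Zinc-finger genes, a clustered family expressed in many tissues, stood at 1.00 (391 genes), stretches of at least 500 kb between genes at 1.13, and the 19557 other protein-coding genes at 0.936. The olfactory receptor ratio exceeded the vomeronasal one by 1.25 ± 0.63 in log2 (SD, n = 6; adjusted p = 0.046875, exact sign-flip permutation test with Benjamini-Hochberg adjustment over 3 classes), in 6 of 6 libraries. In Trem2-MKO replicates 2 and 3 the vomeronasal windows held only 7 and 5 peaks. The excess over vomeronasal receptors was 0.83 ± 0.02 in LysM-Cre and 1.68 ± 0.68 in Trem2-MKO (log2, SD, n = 3 each). The olfactory receptor ratio exceeded the zinc-finger ratio by 0.36 ± 0.46 (adjusted p = 0.046875 in the same exact sign-flip test), in 6 of 6 libraries. This mean fell to 0.19 without Trem2-MKO replicate 3. Both calls were lost at −log10 p 5 or more, by summit and with other flanks (adjusted p of 0.09375 for vomeronasal and 0.21875 to 0.75 for zinc-finger genes, same exact test), and the zinc-finger call also at −log10 q 2 or more (0.65625) and at equal list length (0.0625). Against the gene deserts the difference of 0.19 ± 0.18 did not pass (adjusted p = 0.09375, exact test; above 0 in 5 of 6 libraries). Trem2-MKO replicate 3 was high over gene deserts too, with a log2 ratio of 0.66 there, and low over the other protein-coding genes, with -0.43. GC content and the share of the sequence to which short reads map uniquely were not measured over the windows of any class, and their part in these ratios was not tested.

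**Figure D2:**
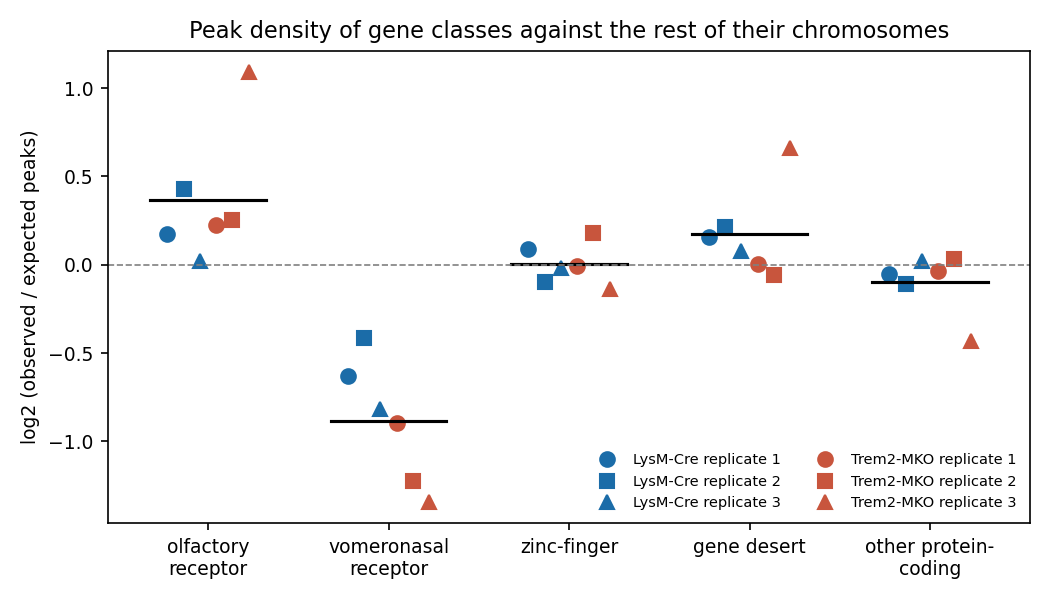
Log2 of observed over expected peaks (vertical axis) for 5 classes, 1 symbol per library (blue LysM-Cre, red Trem2-MKO; circle, square and triangle for replicates 1, 2 and 3) and a black bar at the mean of 6. With peaks counted by overlap, olfactory receptors lie above 0 and vomeronasal receptors below 0 in 6 of 6 libraries. The red triangle of Trem2-MKO replicate 3 is the highest point over olfactory receptors and over gene deserts.

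Peaks at olfactory receptor genes mostly lay beside the genes. Of the 670 peaks 112 (16.7%) touched a gene span and 558 lay in the flanks only. The median gene span was 950 bp, and 81.4% of spans were under 1100 bp, which is mostly coding length. The spans filled 16.9% of the window length and held 14.3% of the summits in windows (92 of 644), with 9.38% to 18.1% in single libraries. Over the 6 libraries summits stood at 43.4 per Mb in the spans, 48.9 within 1 kb of them, 51.4 at 1 to 2.5 kb and 55.7 at 2.5 to 5 kb. Just outside the 5 kb limit, at 5 to 10 kb, they stood at 46.2 per Mb, and at 10 to 25 kb at 43.1. The densities of these rings lay between 43.1 and 55.7 per Mb, and the 5 kb border divided no dense zone from an empty one. The RefSeq table used here holds no exons, so exon and intron were not assigned.

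With the 6 libraries pooled, density around annotated starts was lowest next to olfactory receptor starts and highest next to those of other genes. The annotated Olfr start began an ATG in 72.2% of entries, so it is mostly a coding start. Starts of the groups may thus mark unlike positions, and the part of this in the difference was not tested. The innermost Olfr value rests on 18 summits. Within 250 bp of Olfr starts summits stood at 38.2 per Mb over the 6 libraries, at 250 to 1000 bp at 39.8, at 1000 to 2500 bp at 55.5 and at 2500 to 5000 bp at 54.2. At starts of other protein-coding genes the same distances gave 92.8, 31.1, 33.3 and 33.9. The log2 ratio of the density within 1 kb to that at 1 to 5 kb was -0.43 ± 0.59 (SD, n = 6) for Olfr genes, below 0 in 4 libraries and above in 2. For the other genes it was 0.62 ± 0.45 (SD, n = 6), above 0 in 5 of 6. The Olfr value was the lower in 6 of 6 libraries, by 1.05 ± 0.49 in log2 (exact sign-flip permutation test, p = 0.03125), a comparison chosen after the values had been seen. It was between -1.18 and -0.94 with each library left out in turn. The difference was -1.10 in LysM-Cre and -1.004 in Trem2-MKO (exact permutation test, p = 0.7).

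**Figure D3:**
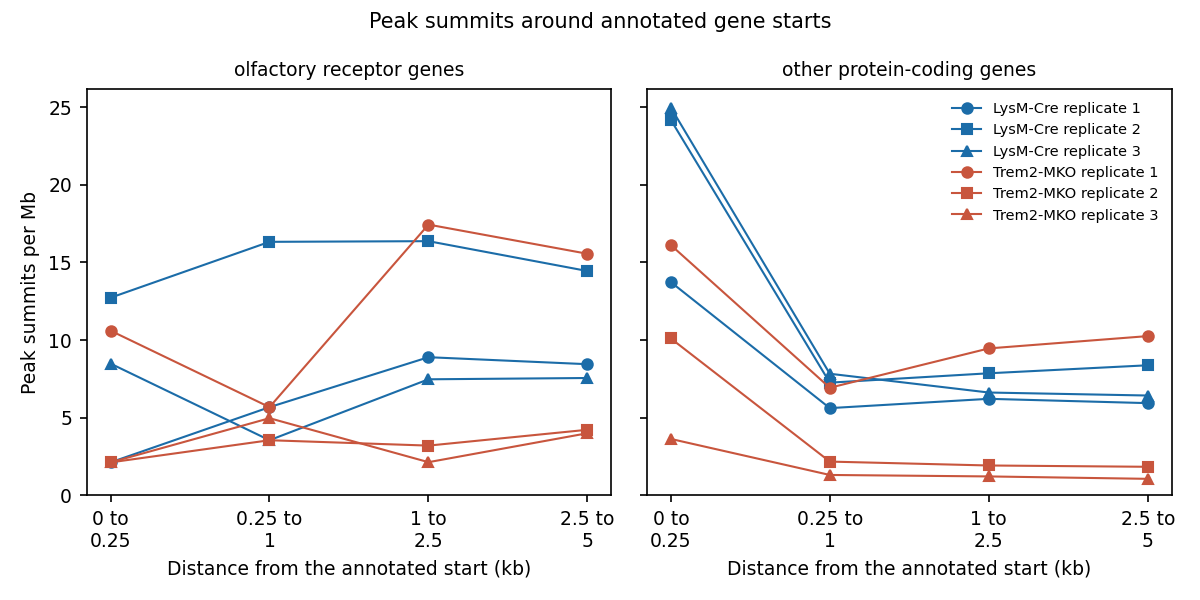
Peak summits per Mb (vertical axis) by distance from the annotated start on either side (horizontal axis, kb), 1 line per library. Olfactory receptor genes, whose annotated start is mostly the coding start, are on the left and other protein-coding genes on the right. The right panel is highest within 0.25 kb in 6 of 6 libraries; in the left panel only the line of LysM-Cre replicate 3 is highest there (8.49), and the pooled values were 38.2 within 0.25 kb and 54.2 at 2.5 to 5 kb.

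Apart from Olfr100, which had no window, the receptor genes formed 47 clusters when neighbours under 1 Mb apart were joined. Of these 8 were of a single gene, and 29 clusters of 5 or more genes held 1069 genes. Over the 6 libraries 22 of the 29 had more peaks than expected from their chromosome and 7 had fewer, with a median ratio of 1.21. When the whole span of each cluster was used in place of the windows, 17 of 29 were above 1 and the median was 1.04. The largest cluster, 222 class II genes from Olfr987 to Olfr1274 on chromosome 2 (85.3 to 90.4 Mb), held 172 peaks where 131 were expected. Its counts were 32, 51 and 21 in LysM-Cre and 48, 11 and 9 in Trem2-MKO, above expectation in 5 of 6 libraries (LysM-Cre replicate 3 had 21 against 26.2). The class I cluster on chromosome 7, 126 genes from Olfr543 to Olfr692, had 12, 16 and 12 peaks in LysM-Cre and 7, 2 and 6 in Trem2-MKO. Its ratio was 1.12 (exact 95% Poisson interval 0.846 to 1.46), with 1.35 in LysM-Cre and 0.773 in Trem2-MKO, where 3 of 3 and 1 of 3 libraries lay above 1.

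The cluster of 63 genes from Olfr1417 to Olfr1505 on chromosome 19 (11.8 to 13.9 Mb) held 9, 21 and 13 peaks in LysM-Cre and 12, 4 and 3 in Trem2-MKO, 62 in all against 40.9 expected. Its ratio of 1.52 (interval 1.16 to 1.95) lay above 1 in 6 of 6 libraries. The same was so for 2 smaller clusters, 19 genes from Olfr16 to Olfr220 on chromosome 1 (21 peaks against 9.78, ratio 2.15) and 13 genes from Olfr62 to Olfr1328 on chromosome 4 (11 peaks against 4.12, ratio 2.67). The chromosome 4 cluster had the highest ratio of the 29, and its counts by library were only 1, 3 and 2 in LysM-Cre and 3, 1 and 1 in Trem2-MKO. The lowest ratio, 0.303, belonged to 8 genes from Olfr164 to Olfr171 on chromosome 16, with 1 peak against 3.30 expected, an interval of 0.008 to 1.69. None of the 29 lay below 1 in 6 of 6 libraries, and in none did all libraries of one genotype lie above 1 and all of the other below.

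Among the 10 largest clusters 2 had fewer peaks than expected. The 95 genes from Olfr160 to Olfr986 on chromosome 9 had 40 peaks against 49.7 (ratio 0.805, interval 0.575 to 1.10), and the 58 genes from Olfr9 to Olfr827 on chromosome 10 had 15 against 17.5 (0.857). The other 5 of the 10 had ratios of 1.09 (67 genes from Olfr693, chromosome 7), 1.18 (46 genes from Olfr90, chromosome 17), 1.29 (37 genes from Olfr1275, chromosome 2), 1.53 (36 genes from Olfr722, chromosome 14) and 1.11 (35 genes from Olfr24, chromosome 9). The interval of each of these 7 clusters included 1.

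**Figure D4:**
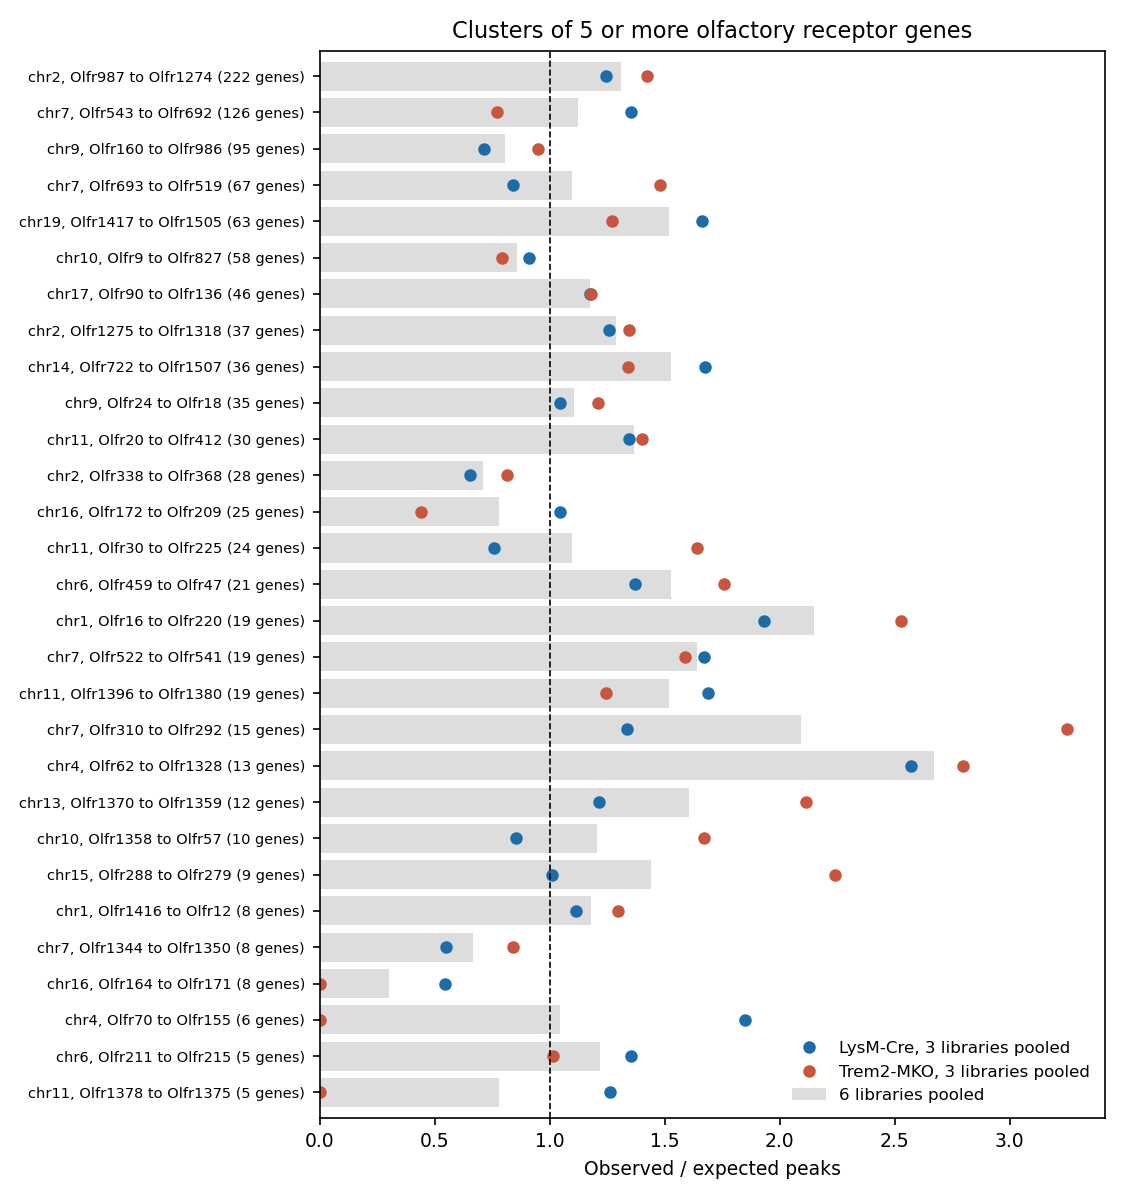
Observed over expected peaks (horizontal axis) for the 29 clusters of 5 or more olfactory receptor genes, named by first and last gene and ordered by number of genes. Grey bars pool 6 libraries, blue and red points pool the 3 libraries of LysM-Cre and Trem2-MKO, and the dashed line is 1; 22 bars pass it, and the points of small clusters lie far apart.

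Few olfactory receptor regions recurred between libraries, at a share close to that over all regions. Peaks that overlapped by at least 1 bp were joined across the lists, which gave 638 regions at Olfr genes: 608 in 1 library, 28 in 2, 2 in 3 and 0 in more. Regions in 2 or more libraries numbered 30, or 4.70% (exact 95% binomial interval 3.19% to 6.64%), against 4.44% of the 103935 regions of chromosomes 1 to 19. Those in 3 or more were 2 of 638, where the share over all regions was 0.318%. A single region had a peak in every LysM-Cre library and in 0 of 3 of Trem2-MKO (0.05% of all regions did), and 0 showed the reverse (0.0221% did).

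The region of 3 LysM-Cre libraries was chr2:88440563-88441182, 4.84 kb from Olfr1182 and in no other coding gene. Its folds were 3.80, 3.76 and 4.72 in LysM-Cre replicates 1, 2 and 3, from 12, 14 and 15 fragments at the summit, and no Trem2-MKO list had a peak there. The other region of 3 libraries, chr2:87863223-87864674, lay 3.32 kb from Olfr1152 and was 1452 bp wide. Its folds were 3.24 in LysM-Cre replicate 2, 3.29 in Trem2-MKO replicate 1 and 3.54 in Trem2-MKO replicate 2. When an overlap of 50% of both intervals was required, only the region near Olfr1182 stayed in 3 libraries. Both regions lie in the largest cluster.

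Of the 28 regions in 2 libraries, the 6 with the highest mean fold were spread over 4 chromosomes. The first, chr1:174394480-174394936 near Olfr248, had folds of 5.15 and 3.36 in Trem2-MKO replicates 1 and 2. The region chr2:37220642-37221366 near Olfr366 had 4.35 in LysM-Cre replicate 1 and 3.76 in Trem2-MKO replicate 1. Near Olfr1028, chr2:85947294-85948000 had 3.24 and 4.43 in LysM-Cre replicates 2 and 3. The other 3 lay near Olfr381 (chr11:73481459-73482343), Olfr1436 (chr19:12301555-12302098) and Olfr231 (chr1:174118489-174119210), with folds between 3.22 and 4.13. Of these 6 regions 3 were shared between the genotypes. Over the family 19 regions (2.98%) had a peak in both genotypes, against 2.24% of all regions.

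By gene, 503 of the 1104 receptors (45.6%) had a peak within 5 kb in at least 1 library, against 64.8% of all protein-coding genes. In 2 or more libraries it was 123 (11.1%) against 37.9%. In 3 or more it was 28 of 1104 receptors against 4335 of 20661 coding genes (21%). Gene length enters these shares, since the median span of all coding genes was 17491 bp. Among the 3540 other coding genes with a span of 5 kb or less the shares were 33.1% in 1 or more libraries and 7.03% in 2 or more. Of these 3540 genes 43 had a peak in 3 or more libraries. Neighbouring receptors can share a peak, so genes of a cluster are not independent. In single libraries 106, 191 and 100 receptors had a peak in LysM-Cre and 166, 43 and 49 in Trem2-MKO.

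Olfr1152, at chr2:87867993-87868925, was the single receptor with a peak in 4 libraries, and none had one in more. It had 1 peak in LysM-Cre replicate 1, 3 in replicate 2, 1 in Trem2-MKO replicate 1 and 1 in replicate 2. Of the 27 with a peak in 3 libraries, Olfr1023, Olfr1089, Olfr1339, Olfr1504, Olfr18, Olfr32 and Olfr419 had 4 peaks each. The other 20 had 3 peaks each, and Olfr1093 and Olfr1138 are named from this tie by the order of their symbols. Among these 10 genes Olfr18 and Olfr32 have the longest annotated spans, of 22203 and 11910 bp. Olfr1023, Olfr1182 and Olfr1280 (whose span is 60182 bp) had a peak in all 3 lists of LysM-Cre and in 0 of Trem2-MKO (1.17% of all coding genes did). Olfr1138 had one in all 3 lists of Trem2-MKO and in 0 of LysM-Cre (0.0581% did). The 3 Olfr1138 peaks, with folds of 2.63, 2.34 and 2.45, did not overlap one another, and neither did the Olfr1023 peaks of different libraries. Of these 4 genes only Olfr1182 had its libraries' peaks at the same place.

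In strength, peaks at olfactory receptors differed from the other peaks of the same chromosomes by less than the spread between libraries. Folds ranged from 1.80 to 5.27 with a median of 3.22, and widths from 340 to 1388 bp with a median of 425 bp. Median folds at receptors were 3.22, 3.24 and 3.35 in LysM-Cre and 3.29, 2.63 and 2.57 in Trem2-MKO, against 3.22, 3.01, 3.25, 3.05, 2.63 and 2.68 for the other peaks in the same order. The mean difference was 0.08 ± 0.14 (SD, n = 6; adjusted p = 0.5, exact sign-flip permutation test adjusted over fold, −log10 p and width, which each gave 0.5). No difference between the genotypes passed for these 3 measures (adjusted p of 1, 0.6 and 1, exact permutation tests). The median summit held 11 or 12 fragments at receptors in 4 libraries and 19.5 and 22 in Trem2-MKO replicates 2 and 3, so single peaks rest on few fragments. The base level of the local background was 5.92 in Trem2-MKO replicates 2 and 3 and 2.39 to 2.70 in the other libraries. Folds of these libraries thus stand on unlike backgrounds.

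The strongest receptor peak of each list by −log10 p had between 15 and 31 fragments. In LysM-Cre replicates 1, 2 and 3 these were chr14:51064903-51065713 near Olfr750 (fold 5.11), chr2:112004822-112005307 near Olfr1310 (4.75) and chr17:37920553-37921011 near Olfr128 (4.72). In Trem2-MKO replicates 1, 2 and 3 they were the Olfr248 peak (5.15), chr19:13098255-13098701 near Olfr1457 (4.19) and chr2:36999645-37000111 near Olfr357 (3.60). Of the 6 only the Olfr248 peak belonged to a region named above as shared by 2 libraries. Peaks with a −log10 q of 2 or more, the authors' adjusted value, numbered 17, 38 and 21 in LysM-Cre and 31, 4 and 3 in Trem2-MKO. As shares these were 16.3%, 18.9%, 21.4%, 17.2%, 10% and 6.38%, against 14.7%, 17.0%, 16.1%, 17.0%, 13.3% and 9.50% of the other peaks, higher at receptors in 4 libraries and lower in Trem2-MKO replicates 2 and 3. The share of peaks whose local background was raised above the library's base level was lower at receptors in 6 of 6 libraries, at 22.1% to 37.8% against 31.6% to 41.9%, by 6.05 ± 4.16 percentage points (SD, n = 6). This measure was added after the data were seen, and its adjusted p over 6 measures was 0.1875 (exact sign-flip permutation test).

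**Figure D5:**
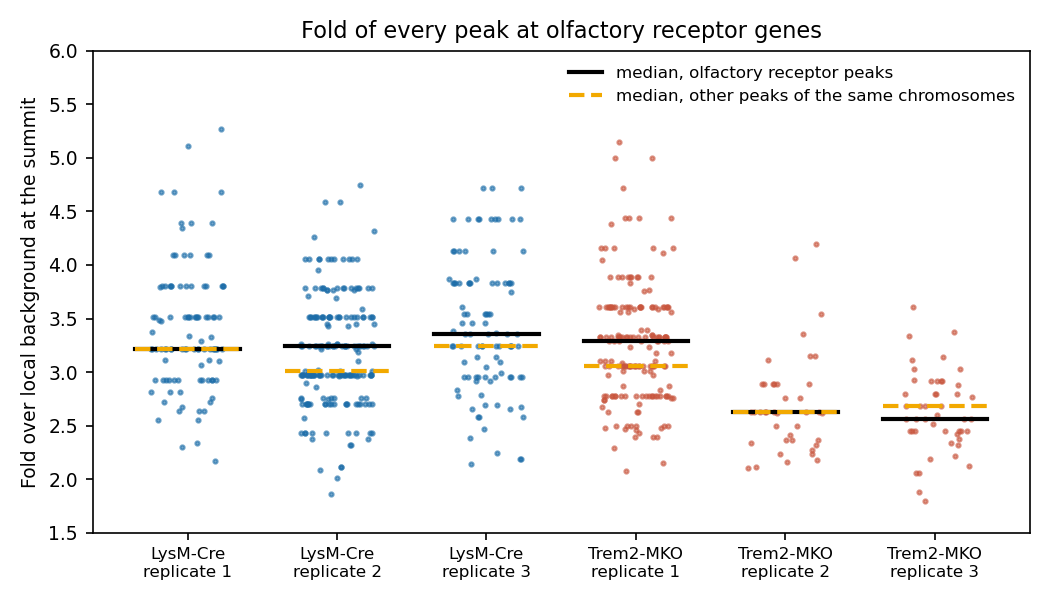
Fold over the local background at the summit (vertical axis) of all 670 peaks at olfactory receptor genes, 1 point per peak, spread sideways at random within each of the 6 libraries. Black bars are the medians of these peaks and dashed yellow bars those of the other peaks of the same chromosomes; the bars coincide in LysM-Cre replicate 1 and Trem2-MKO replicate 2, and the points lie between 1.80 and 5.27.

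Genes that act with the receptors in olfactory neurons are far longer than the receptors, which enters their counts. Of 30 genes of olfactory transduction and receptor choice, 23 (76.7%) had a peak within 5 kb in at least 1 library, beside 64.8% of all coding genes, and 16 (53.3%) in 2 or more, beside 37.9%. Their median span was 39008 bp, against 17491 bp for all coding genes. Of the transduction cascade, Gnal, the G protein alpha subunit coupled to the receptors, had 2, 5 and 1 peaks in LysM-Cre and 3, 1 and 0 in Trem2-MKO. Ano2, the chloride channel that amplifies the current, had 5, 1 and 1 and then 3, 0 and 2. Pde1c, a cyclic nucleotide phosphodiesterase, had 1, 9 and 8 and then 8, 1 and 0. Cngb1, a subunit of the cyclic nucleotide-gated channel, Slc24a4, a calcium exchanger, and Ric8b, which assists the G protein, had peaks in 3, 4 and 3 libraries. Among genes of receptor trafficking, axon wiring and receptor choice, Ncam2 had peaks in 5 libraries, Kirrel3 and Ebf1 in 4, Reep1 in 3 and Emx2 in 2. Of the heterochromatin genes on the list, Ehmt1, Cbx1 and Cbx5 had peaks in 3 libraries, Lbr and Cbx3 in 2, Kdm1a in 1 and Ehmt2 in 0. Cbx1 was the single gene of the 30 with a peak in all 3 lists of LysM-Cre and 0 of Trem2-MKO. Of all coding genes 242 of 20661 (1.17%) had this pattern, and 1 gene of 30 is too few to set beside that share.

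Lhx2 and its partner Ldb1, regulators of receptor choice, had no peak in any library. Of 8 olfactory sensory neuron markers 5 (62.5%) had a peak in some library, where 64.8% of all coding genes and 33.1% of the other genes of 5 kb or less did, while the short genes Omp, Gng13 and Cnga4 had 0 in all 6. Of 8 hepatocyte markers, Hnf4a and Ttr had a peak in 3 and 2 libraries and the other 6, Alb and Apoa1 among them, had 0. Of 6 macrophage markers 4 (66.7%) had a peak, with Adgre1, whose span is 124949 bp, in 6 of 6 libraries. The share of hepatocyte markers with a peak was thus 25%, beside the same 64.8% and 33.1%, with a median span of 10748.5 bp.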

How the data were processed

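The 6 lists of H3K36ac peaks were used, 1 per immunoprecipitate. Per the submitters' processing notes, reads were handled on mm10 with Bowtie2, Trimmomatic, Picard, SAMtools, deepTools and MACS2, with versions not given in the sources used here. Per the labels' protocols, the DNA went through whole-genome amplification. The names of the deposited lists state duplicate removal, a pooled control, a p-value limit of 0.01 and a cap of 500000 peaks. The deposited columns hold an integer score (not used), the fold over local background (a ratio), −log10 p and −log10 q values and a summit offset, all the authors'. Read totals were not used here. Fragments at the summit and the local background were recovered from fold and p, within 0.005 on the −log10 scale for 100% of peaks.

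Genes came from a RefSeq table of GRCm38.p6. The 315 Olfr pseudogenes were not used. Olfr100, listed before the first peak of its chromosome, was kept in the counts of genes but had no window and entered no cluster. Expected counts were each chromosome's density outside the windows times the window length, from first to last peak. Libraries were compared by exact two-sided sign-flip permutation tests (64 sign patterns) and genotypes by exact two-sided permutation tests over 20 assignments. Intervals are 95% and cover counting error only; amplified fragments are not independent molecules. A desert was a gap of 500 kb or more between coding genes. Named regions were those in 3 or more libraries or specific to a genotype, the 6 of highest mean fold in 2 libraries and the strongest peak of each list. Named genes were the 10 with the most libraries and then peaks, ties taken in the order of the symbols, named clusters the 10 largest, the extremes and those above 1 in 6 of 6 libraries (the last, and the printed promoters, chosen after the values were seen). The members and lists were chosen with earlier results of these data known. The density calculation was checked on simulated data for counts by summit, not for the overlap counts used in the main ratios. Python 3 packages were numpy, scipy and pandas.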

Additional observations from a re-analysis of the deposited data

How the results depend on the processing

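The mean excess at receptor genes stayed above 0 under every alternative run, but it did not pass the test in all of them. Counts by overlap include peaks that only reach into a window, which weighs most where windows are short. With no flank LysM-Cre replicates 1 and 3 had ratios of 0.903 and 0.935, and the other libraries lay above 1. Summits in the gene spans stood at 43.4 per Mb, beside 43.1 at 10 to 25 kb. Against 0.37 in log2 (p = 0.03125, exact sign-flip test), the mean was 0.29 with peaks of −log10 p 5 or more, 0.32 with −log10 q 2 or more, 0.27, 0.33 and 0.19 with flanks of 0, 1 and 25 kb, 0.30 by summit, 0.31 with chromosomes pooled, and 0.34 without 250 kb bins that hold no peak (chosen after seeing the data); none of these passed. It passed with lists cut to 4627 peaks each (0.53), with lengths from coordinate 1 and without windows at other genes. Leaving out each library gave 0.22 to 0.44, where 5 libraries cannot pass. The excess over vomeronasal receptors, which could not be computed at −log10 q 2, was 1.20 at −log10 p 5, 1.19, 1.31 and 1.02 with the 3 flanks, 1.19 by summit and 1.02 to 1.34 without each library, none passing; it passed at equal list length (1.45), with chromosomes pooled (1.30), lengths from coordinate 1 (1.27), no windows at other genes (1.24) and no empty bins (1.27). Over zinc-finger genes it was 0.28 and 0.16 at the stricter thresholds, 0.50 at equal list length, 0.19, 0.28 and 0.14 with the flanks, 0.31 by summit and 0.19 to 0.43 without each library, none passing; it passed, at 0.35 to 0.36, in the last 4 of those settings. Over gene deserts it passed at equal list length only (0.34), with 0.14 to 0.24 without each library.

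The genotype difference in log2 ratio, -0.31, turned to 0.064 at −log10 p 5, 0.32 at −log10 q 2 and 0.054 at equal list length, with -0.46 to -0.03 without each library. The genotype difference in −log10 p turned to -0.24 at −log10 p 5, that in fold was between -0.0040 (without Trem2-MKO replicate 3) and 0.17 with each library left out, and the width difference over 6 libraries turned to -1.75 bp with 25 kb flanks. The cause was not tested for any of these.

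Regions in 2 or more libraries were 2.61% with an overlap of 50% of both intervals, 1.65% at −log10 p 5, 2.07% at equal list length and 2.85% to 4.39% without each library, lowest without LysM-Cre replicate 2; over all regions the first 3 settings gave 2.64%, 2.69% and 2.66%. Receptors with a peak in 1, 2 and 3 or more libraries were 93, 10 and 3 with no flank, 185, 23 and 4 with 1 kb, 984, 677 and 316 with 25 kb, and 232, 21 and 3 at −log10 p 5. Without each library they were 390 to 480, 66 to 113 and 8 to 23. Clusters above 1 numbered 20 to 22. The difference at starts was -1.18 to -0.94 without each library, not passing with 5.

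Equal replicate numbers were not treated as pairs. Over 257 bins of 10 Mb the correlations of same-numbered deviations were -0.27, -0.58 and -0.70, and no library correlated best with its own number. Deviations of the 3 libraries of a genotype sum to 0 in each bin, which ties these correlations to one another. They therefore cannot decide whether the samples were paired. The replicate block gave the same difference of -0.31 (exact sign-flip test over 3 pairs, p = 0.75; the smallest possible is 0.25). Depth limits single peaks, with a median of 11 to 23 fragments at the summit, and small clusters, whose counts are often below 5 per library.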
